A study of Rattus norvegicus with 13 samples.

Results

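Nuclear receptors are transcription factors that bind hormones, vitamins, lipids or foreign compounds and act directly on the genes they occupy. Many of them pair with a retinoid X receptor on DNA, and some have no known ligand and are called orphan receptors. Coregulators act through the receptors they bind. Coactivators bring enzymes that open chromatin to a receptor, and corepressors bring histone deacetylases that close it. In the mammary gland, ovarian hormones, vitamin D, retinoids, thyroid hormone and fatty acids all reach the epithelium through this family.

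The expression of 41 genes of this family was compared in epithelial cells of the rat mammary gland between an age inside and an age past the Window of Susceptibility (WOS), the span of life in which the gland is most prone to cancer after an exposure. The members were picked out of 14790 genes in the table by a rule on gene symbols. That rule was set with earlier results of these data known. They comprise 29 receptors (the retinoic acid, retinoid X, thyroid hormone and vitamin D receptors, PPAR alpha and delta, the liver X receptors, the estrogen-related receptor alpha, retinoid-related orphan receptors and the receptors with an Nr symbol) and 12 coregulators (9 coactivators and 3 corepressors). The glucocorticoid receptor gene and the REV-ERB genes were left out by the rule. PPAR gamma and steroid receptors whose symbols have another form were not part of it.

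RNA-seq was performed on cells of 13 Wistar-Furth rats, 1 library each. The 6-week-old group (within WOS) had 6 rats, and the 10-week-old group (outside WOS) had 7. No treatment or genetic change was given for either group, and both groups are of this 1 mammary cancer susceptible strain. Per the labels, the cells were ductal fragments retained on a nylon filter after collagenase digestion of abdominal and inguinal glands. The study's methods describe centrifugation in place of the filter and name fibroblasts of the stroma and immune cells among the material, so it was an enriched rather than a pure epithelial population. Values are normalized counts, that is, read counts scaled between libraries and rounded, and they sum to between 13261906 and 15659533 per rat. Fold changes are 6 weeks over 10 weeks on the scale log2(normalized count + 1), so a negative value means lower within WOS, and a member was called differentially expressed (DE) at a limma adjusted p under 0.05 over all genes.

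Some facts of the whole series bear on every value below. After the age means were removed, the first component of the remaining variation held 28.3% of it and set 5 rats (75 and 80 at 6 weeks; 78, 81 and 83 at 10 weeks) apart from the other 8. The changes of the DE members are therefore also given within these smaller and larger sets. The sets were drawn from the same values, so fits within them are a description and no further test. All 8 luminal and all 8 basal epithelial marker genes were present, of which only luminal *Epcam* passed the threshold (-0.39). Markers of other cells were not even between the ages. Of 6 fibroblast markers 4 were higher at 6 weeks, with a summed level of 106794 to 222648 against 19420 to 55407 at 10 weeks. All 6 markers of dividing cells were higher at 6 weeks (2212 to 4881 against 287 to 1263), as were all 3 red blood cell markers (1251 to 3151 against 186 to 829) and 3 of 4 adipocyte markers (116 to 293 against 40 to 136). Of 5 mast cell markers 4 were higher and 1, *Kit*, was lower at 6 weeks (1728 to 2645 against 1489 to 3775). Most of that sum was *Kit* (1324 to 2190 against 1467 to 3755). The highest of the other 4, *Cpa3*, had 200 to 587 against 9 to 116, with no overlap. Of 3 lymphocyte markers 1 was higher, with the B cell gene *Ms4a1* at a median of 1 or less at each age (3 to 69 against 0 to 101). None of the 7 macrophage (577 to 1346 against 566 to 1257), 5 endothelial (5286 to 9166 against 5063 to 8207) or 2 skeletal muscle markers (16 to 54 against 14 to 56) passed. The part of these cells in the results was not tested, and in such bulk samples fewer cells of a type and less RNA per cell cannot be told apart.

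All 41 members met the minimum mean of 1 normalized count, and 27 of them had a mean of at least 100. Outside WOS 6 members were higher: the thyroid hormone receptor gene *Thrb*, the vitamin D receptor gene *Vdr*, the coactivator genes *Ncoa1* and *Ncoa6*, and the corepressor genes *Ncor1* and *Nrip1*. That is 14.6% of the members, beside 7.39% of all genes called higher at 10 weeks. In the larger set of rats alone limma called these 6 and *Nr5a2*, beside 1466 of all genes higher at 10 weeks, against 1093 with every rat. That set was drawn from the same values, so its calls are a description. In the smaller set alone (2 rats against 3) limma called 0 genes in all and 1976 had an unadjusted p under 0.05. The summed luminal markers, of which only *Epcam* passed, were 28912 to 58139 at 6 weeks and 40992 to 67317 at 10 weeks, and the summed basal markers, of which none passed, 23032 to 34736 and 30856 to 40907. Both sums overlapped between the ages, and their part in these changes was not tested. No member was called higher at 6 weeks by limma, beside 8.71% of all genes. At an unadjusted p under 0.05 there were 12 members, 11 of them lower and 1, *Ppargc1a*, higher at 6 weeks. Of all 14790 genes 4667 were under 0.05 by limma, which is close to the share of the members. The median log2 fold change was -0.10 over the members and 0.028 over all genes. In all, 23 members (56.1%) had a negative fold change, against 47.5% of genes.

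**Figure D1:**
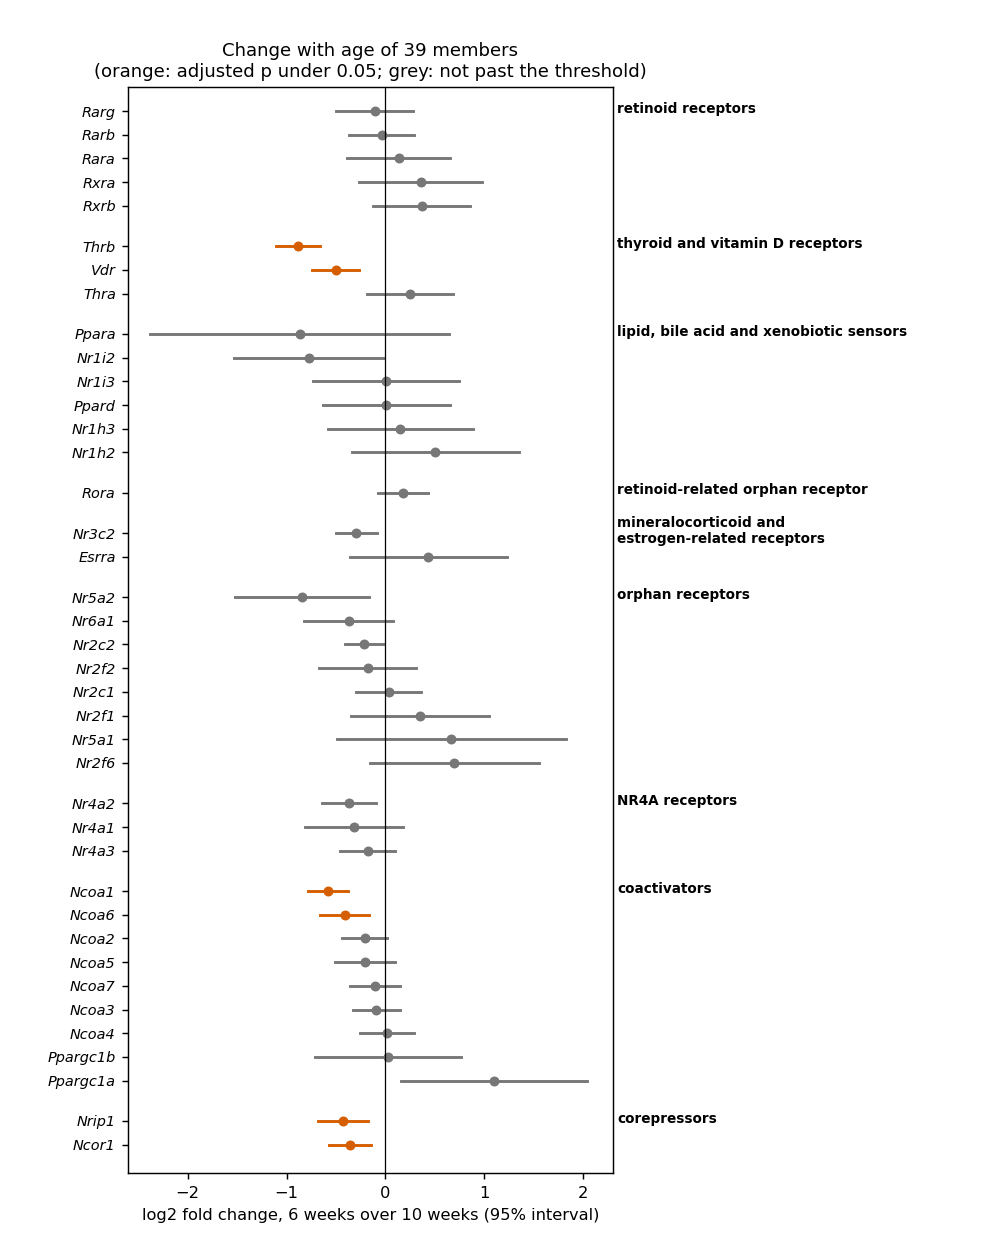
Log2 fold change of 39 members, 6 weeks (n = 6) over 10 weeks (n = 7), with its 95% interval from limma, grouped by role; orange marks the 6 members with an adjusted p under 0.05 and grey the others. The orange intervals all lie left of 0, with estimates from -0.36 for *Ncor1* to -0.88 for *Thrb*, and belong to 3 of the 9 roles.

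The start sites of the 6 genes differ in base composition although all 6 moved in the same direction, and 4 are shown that span this range. Each line gives the 150 bases before the RefSeq gene start, 5′ to 3′ on the gene's strand. Capitals mark GGGCGG or its reverse complement, the GC box bound by Sp1-type factors. All 4 are on the minus strand of GRCr8, at chr15:10461447-10461596 (*Thrb*), chr6:33195925-33196074 (*Ncoa1*), chr7:130916758-130916907 (*Vdr*) and chr3:164391776-164391925 (*Ncoa6*).
Thrb: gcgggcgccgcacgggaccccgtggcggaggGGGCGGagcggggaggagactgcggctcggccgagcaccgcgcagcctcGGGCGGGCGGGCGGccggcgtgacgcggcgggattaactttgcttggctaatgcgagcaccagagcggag
Ncoa1: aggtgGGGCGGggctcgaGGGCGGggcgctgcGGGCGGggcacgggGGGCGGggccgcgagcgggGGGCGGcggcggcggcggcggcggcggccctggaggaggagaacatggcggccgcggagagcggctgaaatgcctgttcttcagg
Vdr: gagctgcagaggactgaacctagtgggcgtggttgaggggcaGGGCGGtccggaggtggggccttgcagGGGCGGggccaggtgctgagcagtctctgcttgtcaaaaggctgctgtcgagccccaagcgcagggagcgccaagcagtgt
Ncoa6: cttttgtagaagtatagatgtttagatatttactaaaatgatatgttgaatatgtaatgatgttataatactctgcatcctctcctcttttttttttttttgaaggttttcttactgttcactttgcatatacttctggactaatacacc

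The windows of *Thrb* and *Ncoa1* are rich in G and C (76.7% and 81.3%), with 4 and 5 GC boxes. That of *Vdr* holds 2 in 66.7% GC, and that of *Ncoa6* none in 28.0% GC. Over 300-base promoters (250 before and 50 after the start), 33 members had a RefSeq entry. Of these, 20 (60.6%) held a GC box on either strand, beside 62.7% of the tested genes with an entry and 33.1% of all 33469 promoters. Among the DE members 5 of 6 held one, all but *Ncoa6*. The receptor half-site AGGTCA, to which many members bind, was in 4 of the 33 members, of which only *Ncoa6* was DE. That is 12.1%, beside 12.6% of the tested genes with an entry and 16.2% of all promoters. The cyclic AMP response element TGACGTCA was in 2 members and the E-box CACGTG in 1, none of them DE, which is 6.06% and 3.03% of the members. Of the tested genes 3.14% and 9.50% held them, and of all promoters 1.83% and 6.42%. These matches describe the letters of the windows, not occupied sites.

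Among the thyroid hormone and vitamin D receptors, 2 of 3 were higher outside WOS. *Thrb* encodes thyroid hormone receptor beta, one of a pair of receptors for triiodothyronine. Its values were 253, 275.5 and 341 normalized counts (lowest, median and highest) at 6 weeks and 474, 534 and 588 at 10 weeks. Every 6-week rat was below every 10-week rat. The 1.84-fold higher level at 10 weeks (log2 fold change -0.88, SE 0.10, limma adjusted p = 0.000224) was called in all 13 fits that left out 1 rat, and was -0.82 in the larger and -1.0 in the smaller set.

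*Thra*, for thyroid hormone receptor alpha, had 165 to 245 normalized counts at 6 weeks and 109 to 256 at 10 weeks, with wide overlap (0.25, SE 0.20, adjusted p = 0.420). It overlaps the coding genes *Med24* and *Nr1d1* in RefSeq, and reads from overlapping genes could not be told apart here, since the strand used in counting is not given in the sources used here. This limit holds for 10 of the 41 members. The others are *Ncor1*, *Ncoa4*, *Ncoa5*, *Rxrb*, *Esrra*, *Ppara*, *Nr1h3*, *Nr1i2* and *Nr1i3*.

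*Vdr* encodes the receptor for calcitriol, the active form of vitamin D. It had 1065, 1095.5 and 1191 normalized counts at 6 weeks and 1146, 1649 and 1831 at 10 weeks. Of the 10-week rats 6 of 7 exceeded every 6-week rat, and rat 78 alone lay among the younger animals with 1146. The level was 1.42-fold higher at 10 weeks (-0.50, SE 0.11, adjusted p = 0.0102 by limma). It stayed called whichever rat was left out, with -0.55 and -0.46 in the larger and smaller set.

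Among the 9 coactivators, *Ncoa1* and *Ncoa6* were higher outside WOS. *Ncoa1* encodes SRC-1, a p160 coactivator that binds many liganded receptors and recruits histone acetyltransferases. Its normalized counts ran from 983 to 1120 with a median of 1036.5 at 6 weeks, and from 1318 to 1720 with a median of 1613 at 10 weeks. The ages did not overlap. The difference was 1.49-fold (-0.58, SE 0.095, adjusted p = 0.00179 by limma), was called with each rat left out, and came to -0.67 in the larger set and -0.45 in the smaller. *Ncoa1* also had the second narrowest spread between rats of one age among members with a mean of at least 100, an SD of 0.126 on the log2 scale, where the median over all genes was 0.367.

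*Ncoa6* encodes a coactivator that joins receptors to histone methyltransferase complexes with KMT2C or KMT2D. It had 974, 1251 and 1445 normalized counts at 6 weeks and 1386, 1555 and 1898 at 10 weeks. Rat 75, at 1445, was the only 6-week rat above the lowest 10-week value. The 1.33-fold difference (-0.41, SE 0.11, adjusted p = 0.0280 by limma) was called in 7 of 13 fits that left out 1 rat and was lost without rat 70, 71, 84, 72, 74 or 87. It was -0.55 in the larger and -0.18 in the smaller set.

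The other p160 genes did not pass the threshold. *Ncoa2* ranged from 407 to 539 normalized counts at 6 weeks and 482 to 607 at 10 weeks (-0.21, SE 0.11), and *Ncoa3* from 438 to 615 and 483 to 634 (-0.09, SE 0.11). *Ncoa4*, for the coactivator that also carries ferritin to autophagy, had 1773 to 2423 and 1656 to 2616 normalized counts (0.014, SE 0.13). *Ncoa5* (383 to 595 and 468 to 710) and *Ncoa7* (1165 to 1498 and 1095 to 1658) overlapped between the ages. The PGC-1 genes, which drive mitochondrial and fatty acid oxidation programs, were low. *Ppargc1a* had 6 to 23 normalized counts at 6 weeks and 1 to 16 at 10 weeks (1.10, SE 0.43, adjusted p = 0.103), and *Ppargc1b* 18 to 61 and 19 to 50.

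Of the 3 corepressor genes, *Nrip1* and *Ncor1* were higher outside WOS. *Nrip1* encodes RIP140, a cofactor that represses many receptors in the presence of their ligands and is itself an estrogen target. Normalized counts were 6447, 7164.5 and 9161 at 6 weeks and 8329, 9933 and 11664 at 10 weeks. Rat 71, at 9161, was above the lowest 2 of the 10-week rats, and the other 5 younger animals were below all of them. The level was 1.35-fold higher at 10 weeks (-0.43, SE 0.12, adjusted p = 0.0288 by limma). It was called in 8 of 13 fits with 1 rat left out, lost without rat 70, 75, 84, 72 or 74, and came to -0.48 and -0.41 in the larger and smaller set.

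*Ncor1* encodes NCoR, the corepressor that holds HDAC3 on thyroid hormone and retinoic acid receptors without ligand. It had 2400, 2832.5 and 3224 normalized counts at 6 weeks and 3236, 3633 and 4070 at 10 weeks. No 6-week rat reached the lowest 10-week rat, but the gap between them was 3224 to 3236. The 1.28-fold difference (-0.36, SE 0.10, adjusted p = 0.0299 by limma) was called in 5 of 13 fits that left out 1 rat. It was lost without rat 70, 71, 80, 84, 72, 74, 78 or 87, and was -0.43 in the larger and -0.25 in the smaller set. *Ncor1* overlaps *Pigl* in RefSeq, whose medians were 47 and 61 normalized counts (-0.52, adjusted p = 0.213). With each rat's values divided to the same total, *Ncor1* and *Nrip1* had adjusted p = 0.0555 and 0.0734.

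In 3 members, *Thrb*, *Ncoa1* and *Ncor1*, every 6-week rat was below every 10-week rat (7.32% of members, beside 2.78% of all genes). In no member was every 6-week rat above, beside 3.29% of genes.

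**Figure D2:**
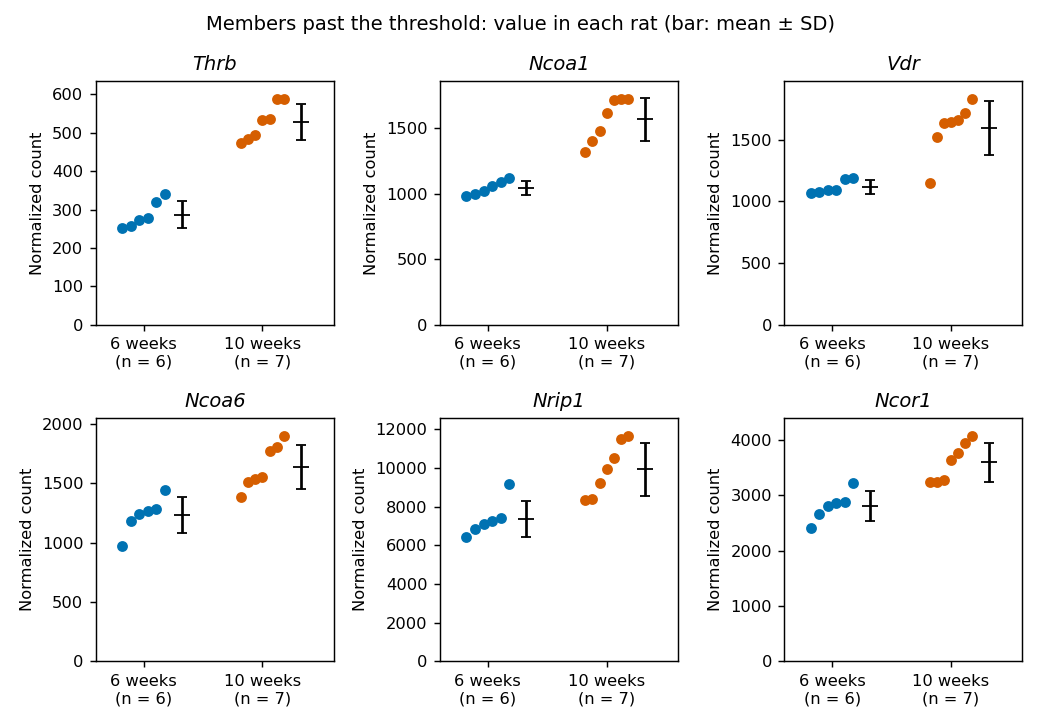
Normalized count (vertical axis, from 0) of the 6 DE members in each rat at 6 weeks (blue, n = 6) and 10 weeks (orange, n = 7), with the mean ± SD beside the points. *Thrb*, *Ncoa1* and *Ncor1* show no overlap between the ages, and the single low 10-week point of *Vdr* is rat 78 with 1146.

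The values of related genes were set against each other within each rat, as log2 ratios that do not depend on the scaling between libraries apart from the added count of 1. Since a ratio of 2 genes also holds the lengths of their transcripts, only its change is compared. The pairs were chosen with their values in view, each with a DE member over a related one that was not, so the ratios are a description with no test. The log2 ratio of *Thrb* to *Thra* was 0.52 ± 0.39 (SD, n = 6) at 6 weeks and 1.65 ± 0.50 (SD, n = 7) at 10 weeks. The difference was -1.13 (SE 0.25), with 5 of 6 younger rats below every older rat.

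The ratio of *Ncoa1* to *Ncoa2* was 1.15 ± 0.15 (SD, n = 6) in the younger and 1.52 ± 0.21 (SD, n = 7) in the older rats (difference -0.37, SE 0.10). Its ratio to *Ncoa3* was 0.97 ± 0.23 and 1.46 ± 0.20 (difference -0.49, SE 0.12). These ratios share their numerator, and in each of them 4 of 6 younger rats were below every older rat. In the larger set alone, with 4 rats at each age, the differences of the 3 ratios were -1.36, -0.44 and -0.57. They were smaller in size in the smaller set. There the log2 fold changes were -1.0 for *Thrb* and -0.14 for *Thra*, and -0.45 for *Ncoa1*, -0.12 for *Ncoa2* and -0.08 for *Ncoa3*.

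**Figure D3:**
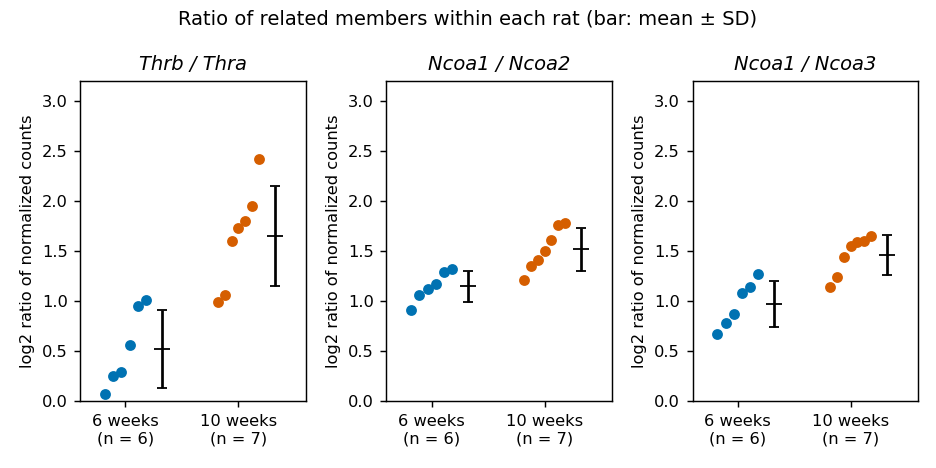
Log2 ratio of the normalized counts of 2 related members within each rat (vertical axis), at 6 weeks (blue, n = 6) and 10 weeks (orange, n = 7), with the mean ± SD beside the points. The ratio of *Thrb* to *Thra* runs from 0.074 to 1.01 at 6 weeks and from 0.99 to 2.42 at 10 weeks, and both ratios of *Ncoa1* are shifted up at 10 weeks with some overlap.

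None of the 5 retinoid receptor genes passed the threshold, and their median log2 fold change was 0.13. Retinoic acid receptors bind retinoic acid, and retinoid X receptors are the shared partners of many members. *Rara* had 156 to 393 normalized counts at 6 weeks and 182 to 398 at 10 weeks, *Rarb* 35 to 65 and 37 to 57, and *Rarg* 320 to 664 and 448 to 784. The largest fold change of the class was that of *Rxrb*, at 0.37 (SE 0.23, adjusted p = 0.291), with 139 to 263 and 107 to 269 normalized counts. *Rxra* had 64 to 138 and 46 to 134 (0.36, SE 0.29). In both genes the ages overlapped over most of their range.

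The 6 sensors of lipids and foreign compounds had a median of 0.0095, and none passed. *Nr1h2*, for the oxysterol receptor LXR beta, had the largest fold change of any member that was not called and had a mean of at least 100. It ranged from 109 to 378 normalized counts at 6 weeks and from 74 to 336 at 10 weeks (0.51, SE 0.39, adjusted p = 0.400). *Nr1h3*, for LXR alpha, had 12 to 66 and 18 to 43. *Ppard*, for the fatty acid receptor PPAR delta, had 966 to 2373 and 760 to 2098 (0.011, SE 0.30). *Ppara*, for PPAR alpha, had 0 to 30 and 9 to 52, the 0 being the only one among the members' values. The xenobiotic receptors *Nr1i2* (3 to 21 and 9 to 22) and *Nr1i3* (4 to 17 and 6 to 20) were low in every rat.

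Of the steroid-type and estrogen-related receptors, *Nr3c2*, for the mineralocorticoid receptor, was close to the threshold. It had 115, 140 and 161 normalized counts at 6 weeks and 153, 168 and 187 at 10 weeks (-0.29, SE 0.097, adjusted p = 0.0578), and 5 of 6 younger rats were below all older ones. *Esrra*, a regulator of mitochondrial genes, had 36 to 134 and 31 to 101 (0.43, SE 0.37). *Rora*, for a retinoid-related orphan receptor that acts on circadian genes, had 352 to 520 and 355 to 447 (0.18, SE 0.12) and did not pass.

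The 8 orphan receptor genes had a median of -0.07, and none passed. *Nr2c2*, for TR4, had 768, 846 and 970 normalized counts at 6 weeks and 957, 977 and 1053 at 10 weeks (-0.22, SE 0.088, adjusted p = 0.113), the narrowest spread between rats among members with a mean of at least 100. *Nr5a2*, for LRH-1, had 12 to 64 and 59 to 97 (-0.84, SE 0.31, adjusted p = 0.0861). *Nr6a1*, for the germ cell nuclear factor, had 116 to 253 and 171 to 344 (-0.37, SE 0.21, adjusted p = 0.239). *Nr2f6*, for the COUP-related factor EAR2, had 70 to 160 and 27 to 183 (0.70, SE 0.40, adjusted p = 0.246). Fitted to the 8 rats of the larger set, limma called *Nr2f6* and *Rxra* higher at 6 weeks and *Nr5a2* higher at 10 weeks. Over all genes 2003 were called higher at 6 weeks there, against 1288 with every rat. Higher at 10 weeks were 1466, against 1093. The COUP-TF genes *Nr2f1* (27 to 59 and 14 to 88) and *Nr2f2* (62 to 130 and 63 to 141) overlapped between the ages, as did *Nr2c1* (155 to 211 and 112 to 216) and *Nr5a1* (11 to 37 and 3 to 39).

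The NR4A genes are switched on within minutes to hours by growth signals and stress in many tissues. All 3 had negative fold changes, and none passed. *Nr4a2* had 687, 885.5 and 1051 normalized counts at 6 weeks and 911, 1049 and 1304 at 10 weeks (-0.37, SE 0.13, adjusted p = 0.0667). *Nr4a1* had 817 to 1644 and 1016 to 2023 (-0.32, SE 0.23, adjusted p = 0.363), and *Nr4a3* 785 to 1214 and 1017 to 1279 (-0.18, SE 0.13). Of 20 immediate-early genes listed beside them, which respond to the same signals, 7 were higher at 10 weeks and none at 6 weeks. Of all genes 7.39% and 8.71% were called so. By smallest p the 7 were led by *Myc* (-0.73, limma adjusted p = 0.00172), *Klf6* (-0.54, adjusted p = 0.00265) and *Fosl1* (-0.57, adjusted p = 0.00828). The rest did not pass and went in both directions, from *Jun* (-0.52) to *Fos* (0.29).

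Several members varied more between rats of one age than between the ages. Of members with a mean of at least 100, *Nr1h2* had a within-age SD of 0.76 on the log2 scale, *Ppard* 0.56 and *Rara* 0.45, and the median over the members was 0.386. *Ppard* had 1939 and 2373 normalized counts in rats 75 and 80 and 2044, 2012 and 2098 in rats 78, 81 and 83, against 760 to 1404 in the other 8. In 6 members (14.6%), among them *Ncoa5*, *Nr4a1*, *Nr5a1*, *Ppard* and *Ppargc1b*, every rat of the smaller set was above every rat of the larger set at each age, as in 5.17% of all genes. In *Ncoa4* (2.44% of members) every rat of the smaller set was below, as in 4.95% of genes. None of these 7 members was DE between the ages. Since the sets were drawn from all genes of the same rats, these counts are a description.

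**Figure D4:**
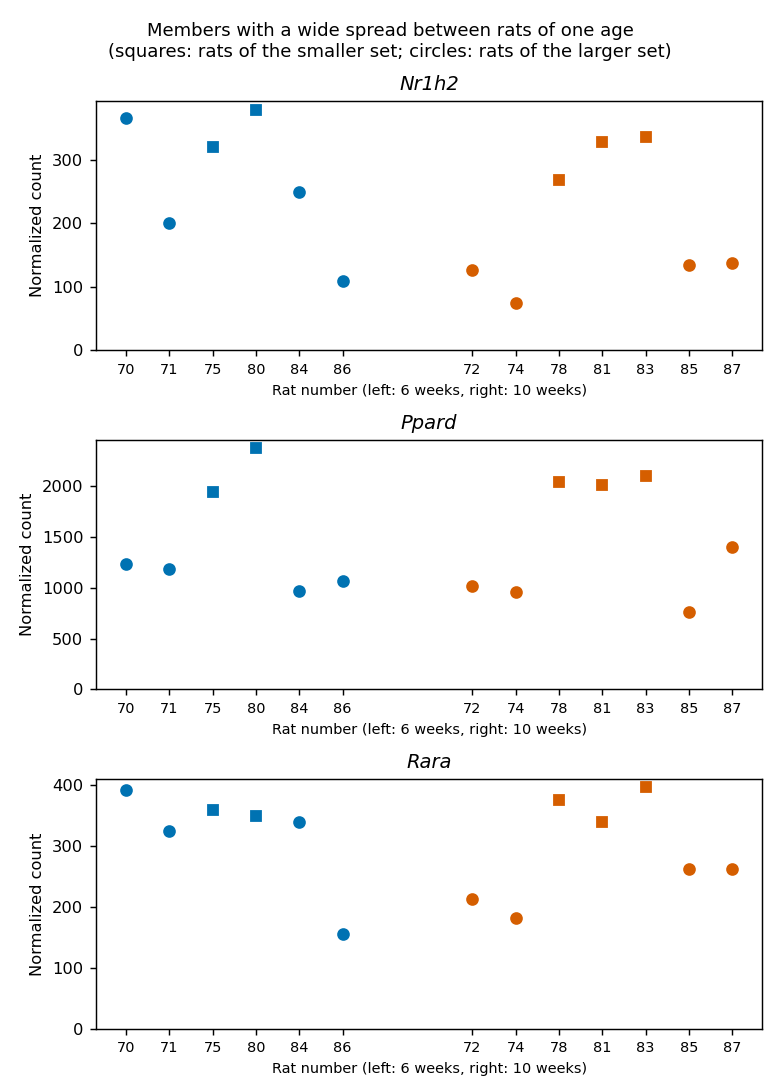
Normalized count (vertical axis, from 0) of *Nr1h2*, *Ppard* and *Rara* in each rat, named by its number on the horizontal axis, at 6 weeks (blue) and 10 weeks (orange); squares are the 5 rats of the smaller set and circles the 8 of the larger. The squares of *Ppard* (1939 to 2373) lie above all circles at both ages.

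Other genes of the members' pathways were looked at in lists, whether or not a receptor of the pathway was DE. Beside the counts in these lists, 7.39% of all genes were called higher at 10 weeks and 8.71% higher at 6 weeks. Of 11 genes of vitamin D and thyroid hormone action in the table, 1 passed. The median log2 fold change of the 11 was 0.28, opposite in sign to the gene that passed. *Cyp24a1*, the classic target of *Vdr* and the enzyme that breaks calcitriol down, had 446, 798.5 and 1017 normalized counts at 6 weeks and 1202, 2174 and 3253 at 10 weeks. The ages did not overlap, and the level was 2.90-fold higher outside WOS (-1.54, SE 0.23, limma adjusted p = 0.00107), with -1.56 in the larger and -1.38 in the smaller set. *Cyp24a1* was highest in rat 78 (3253), which had the lowest *Vdr* value of the 10-week rats (1146). The deiodinase gene *Dio2*, which activates thyroid hormone, had medians of 33.5 and 21 (0.59, adjusted p = 0.0645) and did not pass.

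Of 12 genes of the NCoR and Sin3 deacetylase complexes, *Sin3a*, for a scaffold of such complexes, was the only one that passed. It had 844 to 1024 normalized counts at 6 weeks and 1074 to 1364 at 10 weeks (-0.31, adjusted p = 0.0436). *Sirt1* (-0.42, adjusted p = 0.0828) and *Gps2* (-0.31, adjusted p = 0.120) did not pass. Of 14 partners of coactivators, *Kmt2c*, for a methyltransferase of the *Ncoa6* complex, was the only one, with 653 to 955 and 985 to 1306 normalized counts (-0.41, adjusted p = 0.0262). The median fold change of these partners was -0.22. The arginine methyltransferase gene *Carm1* (-0.42, adjusted p = 0.0581) and the demethylase gene *Kdm6a* (-0.29, adjusted p = 0.113) did not pass. In each of these lists 1 gene passed, which is close to the share of all genes called higher at 10 weeks (7.39%).

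Of 14 targets of PPAR receptors, 3 were higher outside WOS and none within. *Pdk4*, which restrains glucose oxidation, had 733 to 1462 normalized counts at 6 weeks and 3981 to 13242 at 10 weeks (-2.55, adjusted p = 0.000206). *Plin2*, a coat protein of lipid droplets, had 6191 to 9097 and 10674 to 21069 (-0.90, SE 0.17, adjusted p = 0.00492), again with no overlap. The other 11 did not pass, and the median log2 fold change over the 14 was -0.10.

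Of 9 liver X receptor targets in the table, 3 were higher within WOS and none outside, and the other 6 did not pass. The 3 were the cholesterol exporter gene *Abcg1* (997 to 1580 against 558 to 1119 normalized counts, 0.67, SE 0.16, adjusted p = 0.0147), the phospholipid remodeling gene *Lpcat3* (0.37, adjusted p = 0.0353) and the fatty acid desaturase gene *Scd* (0.88, adjusted p = 0.0431). *Abcg1* overlapped between the ages by its lowest younger and highest older rat. The summed fibroblast and adipocyte markers were also higher at 6 weeks, by the ranges given above, and their part in the LXR and retinoid lists was not tested.

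Retinoid genes went in both directions. Of 14 symbols in the table (15 rows, as *Crabp2* has 2), 3 were higher within WOS and 2 outside. *Rbp4*, for the retinol carrier of blood, had 10 to 39 normalized counts against 0 to 5 (2.50, adjusted p = 0.00225), and *Dhrs3*, for a retinal reductase, 118 to 179 against 79 to 120 (0.67, SE 0.14, adjusted p = 0.00653). *Cyp26b1*, which degrades retinoic acid, was higher outside WOS, with 38 to 70 and 69 to 103 (-0.51, adjusted p = 0.0340). The other 2 that passed were *Rdh11* (0.58) and 1 of the rows of *Crabp2* (-1.03). Of 4 xenobiotic response genes in the table none passed, the smallest adjusted p being 0.0705 for *Gstm1* (0.59).

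**Figure D5:**
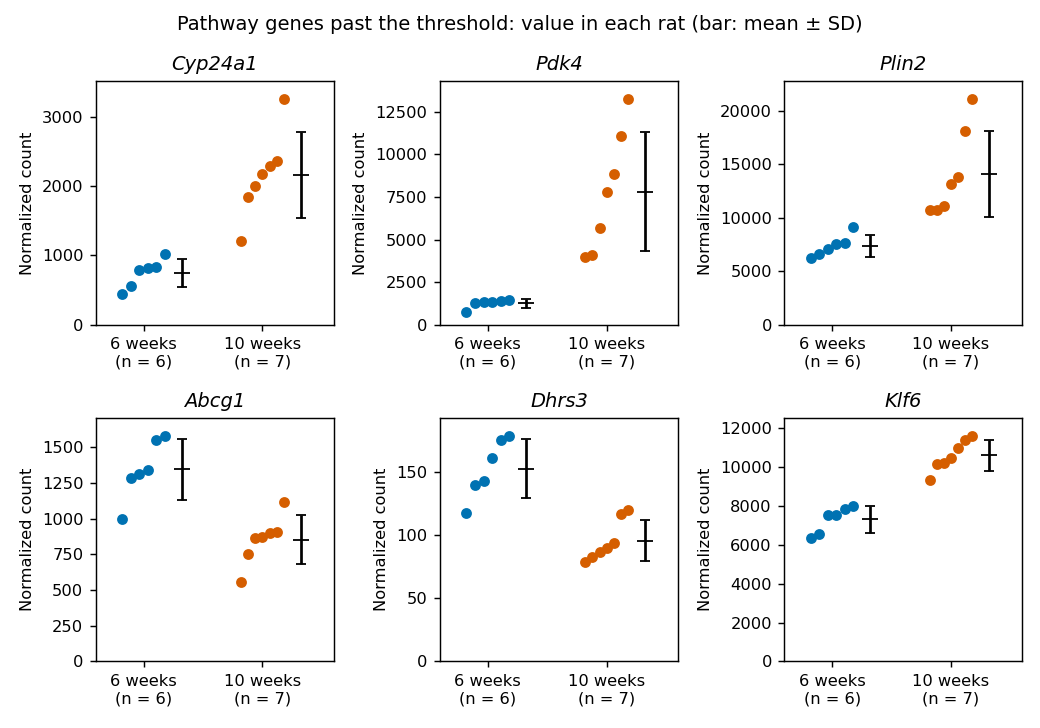
Normalized count (vertical axis, from 0) in each rat of 6 genes from the lists that passed the threshold, at 6 weeks (blue, n = 6) and 10 weeks (orange, n = 7), with the mean ± SD beside the points. *Cyp24a1*, *Pdk4*, *Plin2* and *Klf6* are higher in every 10-week rat, while *Abcg1* and *Dhrs3* are higher at 6 weeks with a small overlap.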

How the data were processed

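Mammary epithelial cells of 13 rats gave 1 RNA-seq library each. The authors obtained counts with RSEM 1.2.22 (rn5 in the submitters' notes). The deposited values are such counts after scaling between libraries and rounding (treated here as a score, not as raw counts): in 7 of 13 rats some whole numbers from 1 to 30 do not occur. The scaling factors, strand setting and reads per library are not given in the sources used here, so counting error could not be computed. The deposited table also holds the authors' own edgeR comparison (fold change, test statistic, p and FDR), which was not used.

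Here limma 3.58.1 (R 4.3.3) was fitted to log2(value + 1) of all 14790 genes with a mean of at least 1, 6 against 7 rats, two-sided, with Benjamini-Hochberg adjustment over all genes and a threshold of 0.05. This scale understates changes of low genes. Rats are separate animals, and the labels name no batch. Ratios of related genes are given as mean and SD with no test. Only the limma fit was tried on simulated counts. The changes set there were larger than those of the DE members, and no component was shared between rats. Alternatives were other scalings, pseudocounts, filters, variance models, weights, sets of rats, and leaving out each rat.

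The members, roles and lists were chosen with earlier results of these data known. Named with values were all DE members, the member with the highest mean of each role, the 5 largest changes with a mean of at least 100 among the rest, and up to 3 genes per list by smallest p. Other members were named to account for the rest (2 members and some list genes are not reported here), and *Rdh11*, *Crabp2* and *Pigl* after their values were seen. Promoters were taken from RefSeq (GRCr8), which is not the build of the counts. Protein sequences were not used here.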

Additional observations from a re-analysis of the deposited data

Results flagged for a closer look

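Among 82 groups (41 members at 2 ages), 6 held 1 rat far from the others on the log2 scale, by the ratio of its gap to the range of the group (critical values 0.625 for 6 rats and 0.568 for 7). Chance alone gives about 1 such group in 20. *Vdr* at 10 weeks had 1146 normalized counts in rat 78, where the others of that age had 1526 to 1831. *Nr2c1* at 10 weeks had 112 in the same rat, against 173 to 216. In rat 80, at 6 weeks, *Nr5a2* had 12 against 39 to 64 and *Ppara* had 0 against 19 to 30. Rat 86, also at 6 weeks, had 1498 for *Ncoa7* against 1165 to 1270, and 156 for *Rara* against 325 to 393. Only *Vdr* of these genes was DE, and it was called with and without rat 78. Over the whole series rats 80 and 78 had the most genes at 0, 463 and 434, followed by rat 81 with 218. The part of this in their low values was not tested.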

How the results depend on the processing

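No paired analysis was possible because the ages share no rat numbers. No member was called higher at 6 weeks under any alternative but sample quality weights and the larger set of rats alone, with 2 each (*Nr2f6* and *Rxra*). Members called higher at 10 weeks numbered 10 with weights, where *Nr1i2*, *Nr3c2*, *Nr4a2* and *Nr5a2* were added. With the residual component as a term they numbered 8, with *Nr3c2* and *Nr5a2* added, and in the larger set 7, with *Nr5a2* added. They numbered 0 in the smaller set alone (2 against 3 rats, added after the data were seen). There limma called no gene, though 1976 genes and 5 members had an unadjusted p under 0.05. With each rat left out the number ran from 3 to 8, and was 3 without rat 70, 84, 72 or 74. Over the 144 refits of the 6 DE members, 117 kept the call and 27 lost it, none changing direction. The median of the members ran from -0.13 to -0.06 with each rat left out. The counts over all genes rose with weights to 3009 higher at 6 and 2638 at 10 weeks, with the residual component as a term to 1651 at 10 weeks, and in the larger set to 2003 at 6 weeks, and fell to 803 and 608 without rat 70. Paralog ratios in the larger set were -1.36 (*Thrb* to *Thra*), -0.44 (*Ncoa1* to *Ncoa2*) and -0.57 (*Ncoa1* to *Ncoa3*), and smaller in size in the smaller set. With each rat left out they ran from -1.24 to -1.0, -0.42 to -0.32 and -0.55 to -0.43. Changes near 0 turned in sign: *Ncoa4* (-0.0065 by median-ratio scaling, -0.048 in the larger set, -0.043 to 0.067 with each rat left out), *Ppard* (-0.0098 by median-ratio scaling, -0.15 to 0.11), *Rarg* (0.075 with weights, 0.097 in the larger set, -0.18 to 0.028) and *Rora* (-0.010 in the larger set). The cause was not tested.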

Other observations

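Of 16 genes of the mitochondrial program that the PGC-1 coactivators and *Esrra* act on, 1 was higher at each age, and the median log2 fold change was 0.11. Over all genes 8.71% were called higher at 6 weeks and 7.39% at 10 weeks. *Nrf1*, for nuclear respiratory factor 1, had 364 to 457 normalized counts at 6 weeks and 492 to 633 at 10 weeks, with no overlap (-0.40, limma adjusted p = 0.0126), and the larger and smaller set gave -0.40 and -0.41. *Ndufb5*, for a subunit of respiratory complex I, had 153 to 399 and 78 to 243 (0.89, adjusted p = 0.0383), with 0.96 and 0.61. *Acadvl*, of fatty acid oxidation, had 560 to 735 and 694 to 863 (-0.24, adjusted p = 0.115).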
